A study of Mus musculus with 4 samples.

Results

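The genes described here are 10 that are transcribed in response to FGF and ERK signalling: the sprouty genes Spry1, Spry2 and Spry4, the related inhibitor gene Spred1, Il17rd (also called Sef), the phosphatase genes Dusp4 and Dusp6, and the ETS transcription factor genes Etv1, Etv4 and Etv5. They were chosen by symbol. All 10 were found among the 22180 genes that were read by a probe set naming a single gene. Where several such probe sets read a gene, the brightest on average over the 4 arrays was used.

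The samples were 4 arrays of total RNA from aggregates of wild type mouse embryonic stem cells grown towards retina in a matrigel-containing medium, 2 harvested at day 4 and 2 at day 7 of differentiation. Both days used a single line derived from EB5 cells of the 129/Ola strain, with GFP knocked in under the promoter of Rx (Rax), so every array carries that allele, and no mutant or treated group entered the comparison. The title of the series concerns R-spondin 2 in the optic vesicle and neuroretina, while the design text compares the 2 days. Nothing in the labels tells whether replicates of a day came from separate cultures, so the p-values cover only the spread among these 4 samples, and that spread may be technical.

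When an FGF ligand binds its receptor, the signal runs through Ras, Raf and MEK to the kinase ERK, which enters the nucleus and changes transcription. Among the genes switched on are the brakes of the same pathway. Sprouty and Spred proteins act between the receptor and Raf, Il17rd encodes a membrane protein that holds back FGF signalling, and the Dusp4 and Dusp6 proteins remove phosphate from ERK itself. Etv1, Etv4 and Etv5 form the Pea3 group of ETS factors, which are widely read as markers of FGF activity. In pluripotent cells ERK signalling helps cells leave the naive state, and in the early eye FGF favours neural retina over pigment epithelium.

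Of the 10 genes, 4 fell by day 7 and 0 rose at an adjusted p under 0.05 (limma, adjusted over all genes), while 6 were not called. The falls were those of Spry4 (3.29-fold lower), Etv5 (2.41-fold), Spry2 (1.90-fold) and Dusp4 (1.87-fold). Over all genes limma called 10.5%, with 4.33% lower and 6.15% higher at day 7. That share includes dim genes, while all 10 lay above the 50th percentile of gene mean level. A fit of the genes above that percentile alone called 2572 of these fewer genes, against 2324 of all genes in the main fit. The share called was thus higher in that fit, and 10.5% is not the background for its counts. In that fit 5 of the 10 were called lower, Etv1 being added, and 1 higher (Spred1). The median day 7 minus day 4 difference of the 10 genes was -0.54 log2, against 0.00 over all genes tested. No member lay near that median, which falls in the gap between Dusp4 (-0.91) and Etv4 (-0.17). It ranged from -0.72 to -0.37 with 1 array left out, and was -0.40 with Etv1 read at its other probe set. Both day 7 arrays lay below both day 4 arrays for 5 of the 10 (Spry2, Spry4, Dusp4, Etv1 and Etv5) and above them for 1 (Spred1), and the days overlapped for 4 (Spry1, Il17rd, Dusp6 and Etv4). Among all genes 50.8% did not overlap, 25.1% lying wholly below and 25.6% wholly above. At an unadjusted p under 0.05 in the limma fit there were 6 genes, the 4 called ones with Etv1 and Spred1. The share of all genes at that threshold was not computed, so this count has no background.

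**Figure D1:**
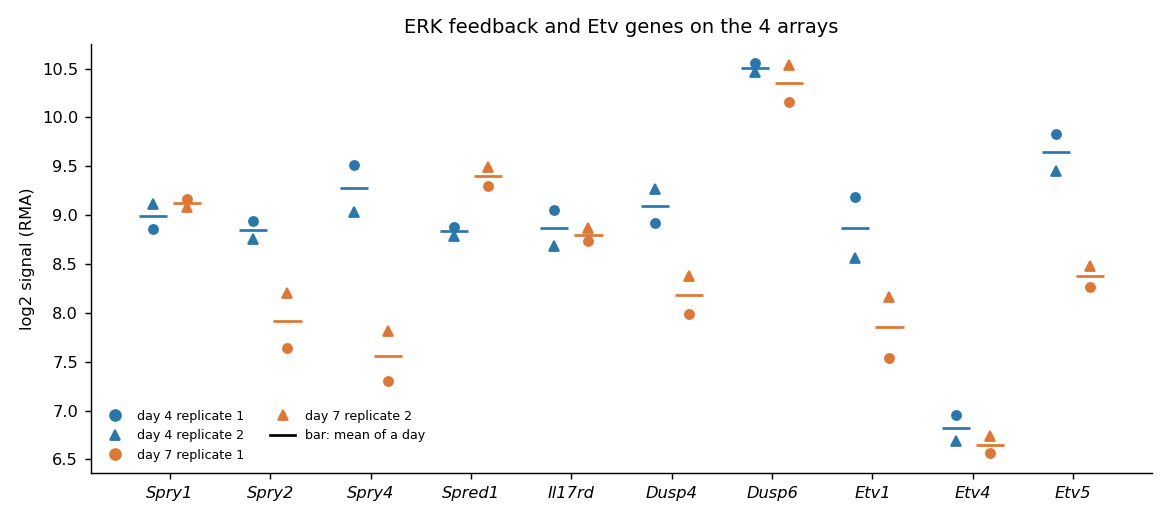
Log2 signal (RMA, y axis) of each of the 10 genes (x axis) on the 4 arrays, with circles for replicate 1, triangles for replicate 2, blue for day 4, orange for day 7 and a bar at the mean of each day. Spry2, Spry4, Dusp4, Etv1 and Etv5 have both day 7 points below both day 4 points, and Spred1 has both above. Heights are comparable within a gene and not between genes.

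Spry4 had the largest change of the 10. Its log2 signal was 9.52 and 9.03 in replicates 1 and 2 of day 4, and 7.30 and 7.81 at day 7. The day 7 arrays were both lower by more than the gap between replicates of either day, which was 0.48 at day 4 and 0.51 at day 7. The difference was -1.72 (SE 0.231, adjusted p = 0.00444, n = 2 per day), with a 95% interval of -2.26 to -1.17. Only 0.631% of all genes had a lower difference. Spry4 was also the only member that stayed called whichever of the 4 arrays was left out, with differences between -1.97 and -1.46.

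Spry2, a sprouty gene used in many developing epithelia, read 8.94 and 8.76 at day 4 and 7.64 and 8.20 at day 7. The days did not overlap, but the day 7 replicates stood 0.56 apart. The difference was -0.93 (SE 0.208, adjusted p = 0.0323, n = 2 per day). Leaving out day 7 replicate 1 raised the adjusted p to 0.190, and leaving out day 4 replicate 1 raised it to 0.0884 (range 0.00745 to 0.190 among alternatives).

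Spry1, the remaining sprouty gene of the 10, was not called. It read 8.86 and 9.11 at day 4 and 9.17 and 9.08 at day 7, so that the days overlapped. The difference was 0.14 (SE 0.153, adjusted p = 0.691, n = 2 per day), with a 95% interval of -0.22 to 0.50. It does not overlap the 95% interval of Spry2 (-1.42 to -0.44) or that of Spry4. Within an array, the log2 ratio of Spry1 to Spry4 changed by 1.86 between days (1.19 to 2.52 over the 4 pairings of a day 7 with a day 4 array), and that of Spry1 to Spry2 by 1.07 (0.53 to 1.61). The ratio of Spry2 to Spry4 changed by 0.79 (0.61 to 0.97). Each of these ratios shifted the same way in all 4 pairings, but the smallest two-sided exact permutation p with 2 arrays a day is 0.333. No model was fitted to these ratios, so the differences between the genes are given as a description.

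The promoters of Spry1 and Spry2 are shown because of this pair of related genes 1 was called lower (Spry2) and the other had days that overlapped (Spry1). The stretches are the 250 bases before the RefSeq start in mouse GRCm38.p6, read 5′ to 3′ along the gene, with capitals at each GGAA or its reverse complement TTCC, the core letters bound by ETS factors. Spry1 is on the plus strand at chr3:37639697-37639946 and Spry2 on the minus strand at chr14:105896820-105897069.
Spry1: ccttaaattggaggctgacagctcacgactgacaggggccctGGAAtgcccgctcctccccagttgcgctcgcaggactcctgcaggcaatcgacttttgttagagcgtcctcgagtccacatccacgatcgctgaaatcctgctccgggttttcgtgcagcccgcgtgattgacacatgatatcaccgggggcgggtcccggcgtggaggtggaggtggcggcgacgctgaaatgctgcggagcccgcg
Spry2: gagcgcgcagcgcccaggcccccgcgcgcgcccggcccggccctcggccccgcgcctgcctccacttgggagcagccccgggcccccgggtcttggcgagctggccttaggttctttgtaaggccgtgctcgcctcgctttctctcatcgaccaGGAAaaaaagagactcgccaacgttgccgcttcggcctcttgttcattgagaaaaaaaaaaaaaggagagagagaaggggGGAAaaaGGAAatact
The Spry1 stretch holds 1 match and the Spry2 stretch 3, against a median of 3 over all 32851 promoter stretches of the same length, of which 93.4% hold at least 1. Both have 62.4% G and C and 23 CpG pairs, more CpG than 86.7% of all stretches.

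Spred1, which encodes a Raf-level inhibitor related to the sproutys, was the member with the largest positive difference. It read 8.88 and 8.78 at day 4 and 9.30 and 9.49 at day 7. The day 7 arrays were both higher, by more than the gap between replicates at either day. The difference of 0.56 (SE 0.147, adjusted p = 0.0565, n = 2 per day, 95% interval 0.22 to 0.91) did not pass. It passed in 4 of 13 alternatives, where the adjusted p was 0.0438 with genes under the 25th percentile of level removed, 0.0235 with those under the 50th removed and 0.0182 under an intensity trend in the variance prior (range 0.0162 to 0.332 among alternatives).

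Il17rd, the membrane inhibitor, read 9.05 and 8.69 at day 4 and 8.73 and 8.86 at day 7. Both day 7 values lay between the day 4 values. The difference was -0.07 (SE 0.170, adjusted p = 0.888, n = 2 per day), with a 95% interval of -0.47 to 0.33.

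Of the phosphatase genes Dusp4 was called and Dusp6 was not. Dusp4, whose protein acts on ERK in the nucleus, read 8.92 and 9.26 at day 4 and 7.99 and 8.38 at day 7. Its days did not overlap, and it fell by 0.91 log2 (SE 0.194, adjusted p = 0.0274, n = 2 per day). The call was lost when day 7 replicate 1 was left out (adjusted p = 0.197), and likewise for day 7 replicate 2 (0.0583) and day 4 replicate 2 (0.0690), with a range of 0.00551 to 0.197 among alternatives.

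Dusp6, the gene of the ERK phosphatase of the cytoplasm, read 10.55 and 10.46 at day 4. At day 7 it read 10.16 and 10.54, so that replicate 1 alone lay below the day 4 arrays. The difference was -0.16 (SE 0.171, adjusted p = 0.687, n = 2 per day), with a 95% interval of -0.56 to 0.25. The log2 ratio of Dusp4 to Dusp6 within an array changed by -0.75 (-0.97 to -0.53 over the 4 pairings), a difference between the genes that was not tested, and their 95% intervals overlap (Dusp4 -1.36 to -0.45). The Dusp6 promoter is shown as that of a member whose days overlapped, on the plus strand at chr10:99262981-99263230, with the same capitals.
Dusp6: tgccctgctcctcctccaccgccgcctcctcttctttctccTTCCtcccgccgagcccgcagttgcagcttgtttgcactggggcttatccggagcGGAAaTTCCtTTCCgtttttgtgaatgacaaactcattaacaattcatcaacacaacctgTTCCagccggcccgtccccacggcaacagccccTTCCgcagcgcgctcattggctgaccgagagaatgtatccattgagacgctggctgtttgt
It holds 6 matches of GGAA or TTCC, more than 91.3% of all stretches have. One of them is part of AGGAAG, a longer ETS motif read here as CTTCCT, which 29.5% of all stretches hold on either strand and which contains GGAA.

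**Figure D2:**
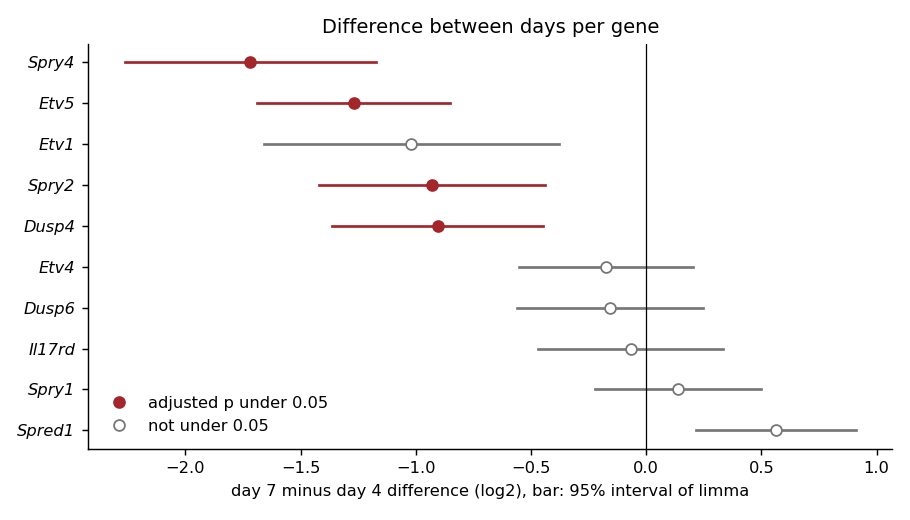
Day 7 minus day 4 difference in log2 signal (x axis) of each gene, with limma's 95% interval as a bar. Filled red points are the 4 genes with an adjusted p under 0.05 (Spry4, Etv5, Spry2 and Dusp4), and open grey points the other 6. The intervals of Etv1 and Spred1 leave out 0, but their p-values adjusted over all genes were 0.0604 and 0.0565.

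Among the Pea3 factors Etv5 had the clearest fall. It read 9.83 and 9.46 at day 4 and 8.26 and 8.48 at day 7. The gap between the days was larger than either replicate gap. The difference was -1.27 (SE 0.178, adjusted p = 0.00529, n = 2 per day), lower than that of all but 1.31% of genes. Leaving out day 7 replicate 1 gave an adjusted p of 0.0578, the highest among the alternatives, which reached down to 0.000327.

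Etv5 has another probe set, 17547943, which read 7.09 and 6.73 at day 4 and 6.31 and 6.34 at day 7. It was lower at day 7 as well, without overlap, by a smaller amount of -0.59 (SE 0.168, adjusted p = 0.0758 over all 23521 probe sets naming 1 gene). Averaging both probe sets gave Etv5 a difference of -0.93 and an adjusted p of 0.0149.

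The upstream stretches of both RefSeq starts of Etv5 are shown because Etv5 is the called ETS gene, on the minus strand at chr16:22439571-22439820 (start A) and chr16:22438369-22438618 (start B).
Etv5 start A: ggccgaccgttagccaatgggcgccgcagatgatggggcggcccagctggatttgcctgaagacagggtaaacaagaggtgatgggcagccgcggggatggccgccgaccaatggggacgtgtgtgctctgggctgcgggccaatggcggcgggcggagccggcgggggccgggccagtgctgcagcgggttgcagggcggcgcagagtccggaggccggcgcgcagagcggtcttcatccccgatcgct
Etv5 start B: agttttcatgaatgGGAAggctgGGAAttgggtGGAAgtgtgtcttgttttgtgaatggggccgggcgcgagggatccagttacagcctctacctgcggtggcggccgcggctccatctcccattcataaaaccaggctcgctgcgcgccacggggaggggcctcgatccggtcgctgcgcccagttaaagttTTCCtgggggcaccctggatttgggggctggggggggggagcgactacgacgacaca
Start A has 0 matches of GGAA or TTCC in this window and start B has 4. They hold 27 and 18 CpG pairs, against a median of 6 over all stretches. Of the 10 genes 7 had an entry in the RefSeq promoter table, with 9 stretches in all, those named above and Spred1, Il17rd and Etv1 (2 stretches). The consensus ETS letters CCGGAAG were in 0 of the 9 (6.91% of all stretches), the AP-1 letters TGANTCA in 0 (6.75%) and AGGAAG in 2, one each for Dusp6 and Etv1. A match or its absence in such a window is a description of the letters alone.

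Etv1 was lower at day 7 in every array, yet was not called. At its brighter probe set, 17289547, it read 9.18 and 8.56 at day 4 and 7.54 and 8.17 at day 7. The replicates stood 0.62 apart at day 4 and 0.63 at day 7, the widest gaps among the 10 genes. The difference was -1.02 (SE 0.272, adjusted p = 0.0604, n = 2 per day, 95% interval -1.66 to -0.38). The adjusted p ranged from 0.0179, with day 4 replicate 2 left out, to 0.324, with day 7 replicate 1 left out, and was 0.0222 after median centring.

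Which RNA the brighter Etv1 probe set reads is uncertain. Probe set numbers of this array largely run along the chromosomes (98.5% of neighbouring pairs lie on the same one), and 17289547 lies between probe sets of Mast4 and Sgtb, genes that RefSeq places on another chromosome than Etv1. The other probe set, 17275123, lies among genes of Etv1's own chromosome, next to Agmo. It read 6.38 and 6.18 at day 4 and 5.28 and 6.00 at day 7, lower without overlap. Its difference was -0.64 (SE 0.240), with an adjusted p of 0.165 when it stood for Etv1 in the fit. Both probe sets were thus lower at day 7 on both arrays, and neither passed.

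Etv4, the remaining Pea3 gene, read 6.96 and 6.69 at day 4 and 6.56 and 6.74 at day 7. The days overlapped. The difference was -0.17 (SE 0.160, adjusted p = 0.625, n = 2 per day), with a 95% interval of -0.55 to 0.20. The log2 ratio of Etv4 to Etv5 within an array changed by 1.10 (1.02 to 1.17 over the 4 pairings). The ratios that involve Etv1 depended on its probe set. At the brighter one, whose target is uncertain, the ratio of Etv1 to Etv4 changed by -0.85 (-1.25 to -0.44), and at the other, a reading added after seeing the data, by -0.46 (-0.76 to -0.16). The ratio of Etv1 to Etv5 changed by 0.25 at the brighter probe set, with pairings of either sign (-0.08 to 0.58). At the other probe set it changed by 0.63, and all 4 pairings were positive (0.30 to 0.97).

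**Figure D3:**
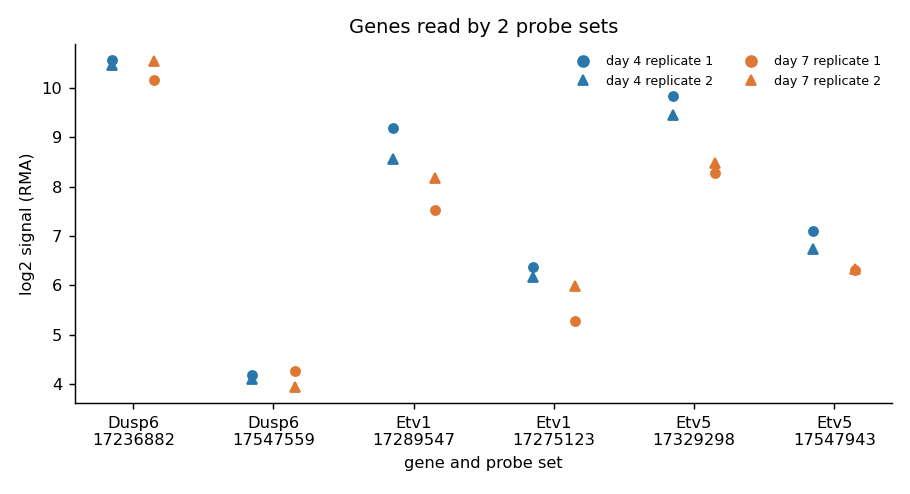
Log2 signal (RMA, y axis) on each array for the 3 genes with a pair of probe sets (x axis, gene and probe set number), with circles for replicate 1, triangles for replicate 2, blue for day 4 and orange for day 7. Both probe sets of Etv1 and of Etv5 are lower at day 7 without overlap. The dimmer Dusp6 probe set, 17547559, stays between 3.95 and 4.27, under the 25th percentile of gene means (4.60).

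The replicates of a day differed in the same direction for most of these genes. At day 7, 9 of the 10 were higher in replicate 2 than in replicate 1, all but Spry1, with a median gap of 0.30 log2. Over all genes 47.3% were higher in replicate 2, with a median gap of -0.01. At day 4, 8 of the 10 were higher in replicate 1, all but Spry1 and Dusp4, with a median gap of 0.22 against -0.01 over all genes. For Spry2, Spry4, Etv1 and Etv5 the pair of day 4 replicate 1 and day 7 replicate 1 was therefore the pair furthest apart. With day 7 replicate 1 left out the count of called members was 1 (Spry4), and with day 7 replicate 2 left out it was 3 (Spry2, Spry4 and Etv5). Leaving out an array of day 4 gave 3 for replicate 1 (Spry4, Dusp4 and Etv5) and 4 for replicate 2 (Spry2, Spry4, Etv1 and Etv5).

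**Figure D4:**
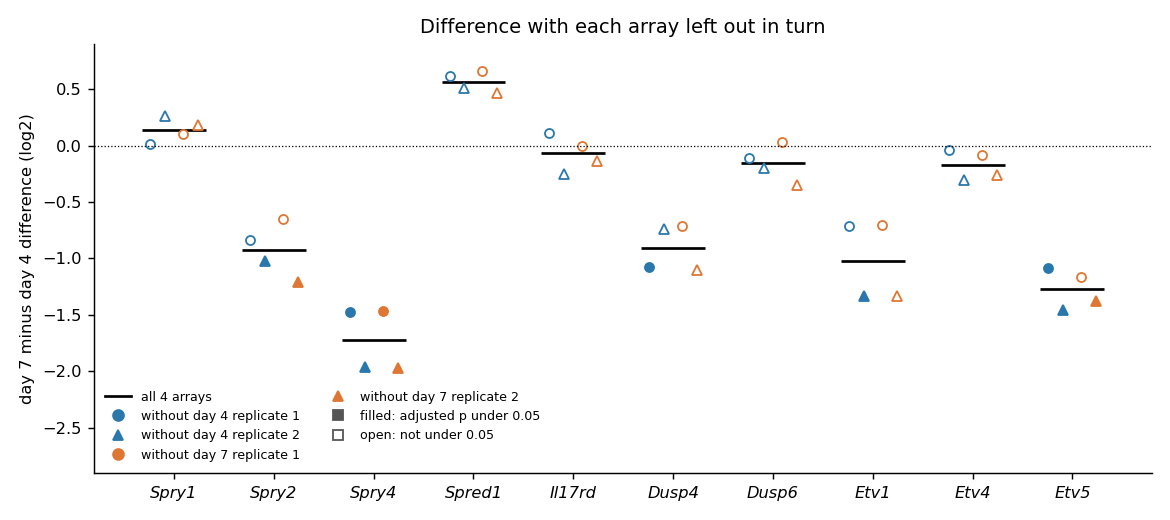
Day 7 minus day 4 difference in log2 signal (y axis) of each gene (x axis) with all 4 arrays (black bar) and with 1 array left out, named by colour and symbol. Filled symbols have an adjusted p under 0.05. Spry4 stays filled in all 4, and Il17rd and Dusp6 cross 0.

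Some marker genes of several cell states also differed between the days. Of 8 marker genes of pluripotent or epiblast cells, 5 fell (Fgf5, Dnmt3b, Utf1, Tdgf1 and Pou5f1) and 0 rose. Their summed linear signal was 15450 and 13656 in replicates 1 and 2 of day 4, and 3451 and 3798 in those of day 7. It was thus higher in replicate 1 at day 4 and in replicate 2 at day 7, the same order as in most of the 10 genes. The surface ectoderm sums had this order too, at 3459 and 3065 for day 4 and 1617 and 2110 for day 7. So did those of endothelium and blood, at 337 and 317 for day 4 and 320 and 520 for day 7. The sums of early neuron, mesoderm, endoderm and neural crest markers did not. For surface ectoderm the day 4 order was that of Epcam alone (11.00 and 10.50 log2 in replicates 1 and 2). Krt8, Krt18 and Trp63 were higher in replicate 2 at day 4. Of 8 neural progenitor markers 7 rose. Their sums were 5374 and 5400 in replicates 1 and 2 of day 4, and 12700 and 12224 in those of day 7. That is the reverse order on both days. Pax6 is counted both here and among the eye field markers. Of 8 eye field markers 3 rose (Rax, Lhx2 and Pax6), with sums of 2545 to 3222 at day 4 and 4131 to 5414 at day 7. Otx2, the largest part of the day 4 sums, went the other way without being called. It read 10.86 and 11.03 log2 at day 4 and 10.25 and 10.55 at day 7 (difference -0.54, limma adjusted p = 0.0898). The eye field sums were higher in replicate 2 than in replicate 1 on both days. That is the order of most of the 10 genes at day 7 and not at day 4. The part of these shifts in the fall of Spry2, Spry4, Dusp4 and Etv5, and in the gaps between replicates, was not tested. In RNA of whole aggregates, fewer cells of a type and less RNA per cell cannot be told apart. Among markers of other cells, 2 of 6 early neuron genes rose (Dcx and Neurod4) and 1 fell (Stmn2). Of 5 neural crest genes 2 rose (Sox10 and Snai2) and 1 fell (Foxd3). Of 6 endoderm genes 2 rose (Sox17 and Cxcr4) and 0 fell. Of 5 mesoderm genes 0 rose and 1 fell (Eomes), and of 4 surface ectoderm genes 0 rose and 1 fell (Epcam). Of 4 endothelial and blood genes 1 rose (Kdr) and 0 fell. Which cells expressed these genes was not tested.

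The rest of the pathway was read from 6 lists of 113 genes, of which 103 were measured. Of these, 15 rose, 9 fell and 79 were not called, a share called of 23.3% against 10.5% of all genes, with a median difference of 0.10 log2. The 10.5% includes dim genes, and a share among genes of like level was not computed, so these shares do not compare like with like. The fit of only the genes above the 50th percentile of level called 2572 genes, 24 of them pathway genes. The members' 4 called genes, all lower, stand beside these counts without a test between the groups. Of the 24 called, 8 were called with any of the 4 arrays left out (Fgf5, Fgf13, Flrt2, Flrt3, Spred3, Lrig1, Ier3 and Fli1), 9 when day 7 replicate 1 was left out and 11 when day 7 replicate 2 was. In the lists that follow, genes beyond the first pair in a direction are named to complete a short count, a choice made with their values known.

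Among the 22 ligand genes, 4 fell and 2 rose. Fgf5, a growth factor gene of the epiblast, read 10.66 and 10.62 at day 4 and 5.74 and 6.13 at day 7. It was also counted above among the markers of pluripotent or epiblast cells. Fgf4, the ligand made by embryonic stem cells, read 9.25 and 8.91 at day 4 and 7.91 and 8.00 at day 7, a difference of -1.13 (adjusted p = 0.00624, and 0.0650 without day 7 replicate 1). Fgf11 (-0.81) and Fgf14 (-0.77) also fell, and Fgf13 (1.27) and Fgf12 (0.75) rose. With 1 array left out the adjusted p reached 0.0992 for Fgf11 (day 7 replicate 1), 0.169 for Fgf14 and 0.150 for Fgf12 (both day 7 replicate 2). These last 4 belong to the group of FGF homologous factors, which stay inside the cell and do not act as ligands of the FGF receptors. Fgf8, a ligand of early brain and eye signalling centres, read 5.56 and 5.68 at day 4 and 5.50 and 6.11 at day 7 (adjusted p = 0.712). Fgf15, a ligand of the developing forebrain and retina, read 10.10 and 9.89 at day 4 and 9.79 and 9.61 at day 7 (difference -0.29, adjusted p = 0.332).

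Receptor genes held no called fall. Of the 10 genes for receptors and their partners, 4 rose and 0 fell. Fgfr3 read 6.22 and 6.24 at day 4 and 7.73 and 7.10 at day 7, a difference of 1.19 (SE 0.214, adjusted p = 0.0147, and 0.0781 without day 7 replicate 1). The others were Flrt2 (1.83) and Flrt3 (1.15), genes of membrane proteins that bind FGF receptors, and the decoy receptor gene Fgfrl1 (0.80, adjusted p = 0.0157, and 0.145 without day 7 replicate 1). Fgfr1 had a difference of -0.31 (adjusted p = 0.440) and Fgfr2 one of -0.05 (adjusted p = 0.956). The day 4 arrays differed for both, with 9.91 and 10.44 for Fgfr1 and 9.50 and 10.40 for Fgfr2.

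From the receptor to ERK, 4 of 17 measured genes rose and 1 fell. The kinase gene Rps6ka3 (1.04), the exchange factor gene Sos2 (0.91), the scaffold gene Ksr1 (0.71) and the Ras inhibitor gene Nf1 (0.64) rose, and the adaptor gene Shc1 fell by 0.62. With day 7 replicate 1 or 2 left out, these 5 had highest adjusted p-values from 0.0532 (Rps6ka3) to 0.280 (Shc1).

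Among 16 other attenuators of ERK, relatives of the members included, 1 fell and 1 rose. Spred3 read 9.03 and 9.05 at day 4 and 7.64 and 7.70 at day 7, a difference of -1.37 (SE 0.136, adjusted p = 0.00133), while Spred2 had one of -0.08 (adjusted p = 0.828). Lrig1, a receptor inhibitor gene, rose by 1.34. Spry3 had a difference of -0.09 (adjusted p = 0.855). Of the Spred genes Spred3 was called lower, and Spred1 and Spred2 were not called. Differences among them were not tested.

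Immediate early and other genes induced by ERK split, with 2 of 19 higher and 3 lower. Phlda1 rose by 1.08 (adjusted p = 0.00745, and 0.0694 without day 7 replicate 2) and Jun, a part of AP-1, by 1.03 (adjusted p = 0.00445, and 0.0562 without day 7 replicate 1). Ier3 fell by 1.36 (adjusted p = 0.00558), Csrnp1 by 0.73 and Klf10 by 0.64, and the adjusted p was 0.136 for Csrnp1 and 0.183 for Klf10 without day 7 replicate 2. Egr1, an early response gene, had a difference of 0.42 (adjusted p = 0.177) and Fos one of -0.35 (adjusted p = 0.368). Of 19 other ETS factor genes 2 rose and 0 fell, Fli1 by 1.30 and Etv6 by 0.60 (adjusted p = 0.0454, and 0.302 without day 7 replicate 1), so Etv5 was the only called ETS gene of these lists and the members that was lower.

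**Figure D5:**
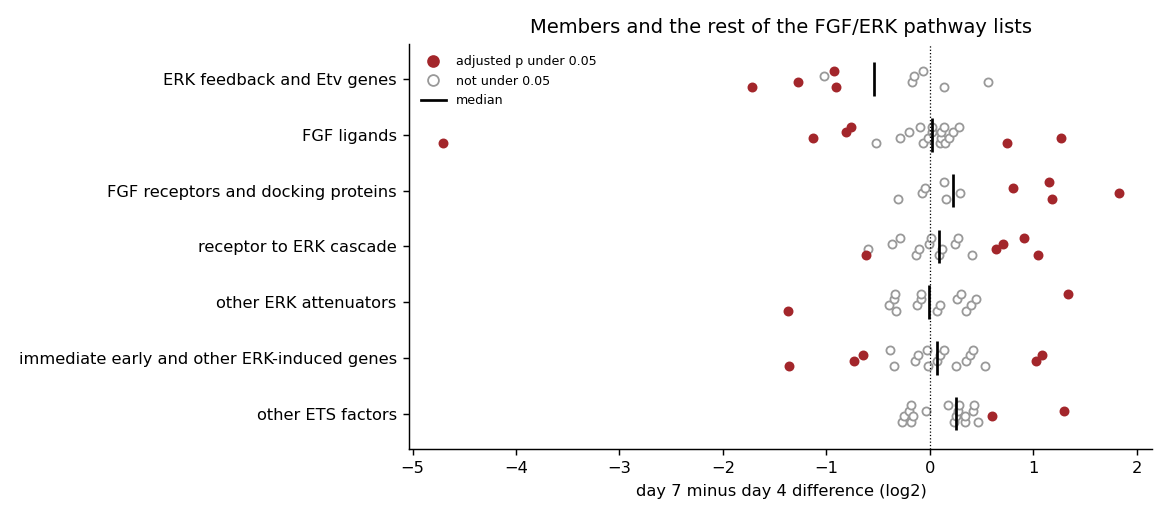
Day 7 minus day 4 difference in log2 signal (x axis) for the 10 genes and for the 6 lists of the FGF and ERK pathway (y axis), 1 point per gene, filled red where the adjusted p was under 0.05, with a black bar at each list's median. The members' median is -0.54, in a gap between Dusp4 (-0.91) and Etv4 (-0.17) that holds no member. The medians of the 6 lists lie between -0.01 and 0.25.

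The genes nearest in pattern were sought among 18271 other protein-coding genes, by Euclidean distance over the 4 arrays after subtracting each gene's mean. Nearest to Spry4 were Car2 (distance 0.115 log2), Met (0.132), Derl3 (0.134) and Epha1 (0.168), whose differences ran from -1.88 to -1.62. Nearest to Spred1 were Wsb1 (0.0192), Fam135a (0.0512), Plpp5 (0.0576) and Abcd3 (0.0615), with differences from 0.52 to 0.59. With 4 arrays such a distance mostly reflects the size of the change between days.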

How the data were processed

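The deposited values are on a log2 scale, with a value for every probe set of each array, and the submitters' processing notes name RMA and Partek 6.5. RMA corrects background, quantile-normalizes arrays and summarises probes. For its settings, which are not given in the sources used here, no assumption was made. The array medians lay between 5.68 and 5.77 log2, and replicates correlated over 41345 probe sets with r = 0.986 (day 4) and 0.991 (day 7). Arrays of different days had r from 0.972 to 0.978. The values were used as deposited. Normalization of this kind hides a change shared by most genes, and background left in the signal shrinks the differences of dim genes. The number of arrays limits the precision.

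Probe sets were named through the platform annotation, and 1814 that name several genes and 16010 without a name here were not tested. limma 3.58.1 (lmFit and eBayes, R 4.3.3) fitted day 7 minus day 4 over 22180 genes with 2 residual degrees of freedom and a variance prior of 5.07 degrees of freedom. Tests were two-sided, with Benjamini-Hochberg adjustment over all genes. The fit was tested on simulated data with known changes. Their spreads came from the fit's own variance prior with independent noise, so replicate gaps shared by genes were not covered. The 10 genes, the lists and the alternatives were chosen with earlier results of these data known. From each list the 2 largest called rises and the 2 largest called falls were named by rule, along with Fgf4, Fgf5, Fgf8, Fgf15, Fgfr1, Fgfr2 and Fgfr3. Other list genes named singly (Egr1, Fos, Spred2, Spry3) were chosen after their values were seen.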

Additional observations from a re-analysis of the deposited data

How the results depend on the processing

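With each array left out in turn, the count of members lower at day 7 ranged from 1 to 4, that of all genes called from 887 to 2500 and that of called pathway genes from 9 to 22. A day then rests on 1 sample, which is assumed to vary like the other day. Over the same fits the difference of Il17rd ranged from -0.25 to 0.11 and that of Dusp6 from -0.35 to 0.033, and neither was called. The count of members higher at day 7 was 1 (Spred1) on genes above the 25th or 50th percentile of level, with an intensity trend, with a trend and robust prior, and at an adjusted p under 0.1. At an adjusted p under 0.01 there were 2 members lower (Spry4 and Etv5), 1078 genes in all and 13 pathway genes. Etv1 made the count of lower members 5 with median centring, above the 50th percentile, with either trend and at an adjusted p under 0.1. These calls are of its brighter probe set, whose target is uncertain. The other had an adjusted p of 0.165 when it stood for Etv1. It was not fitted with median centring, the level filter or a trend. The replicate numbers were not taken to pair the samples, since replicate 1 minus replicate 2 at day 4 and day 7 correlated over genes with r = 0.19 for a single pair of days. With the replicate number as a block 4 members were lower and 0 higher, 2770 genes were called in all and 24 pathway genes, and no call of a member changed. Quantile normalization and averaging the probe sets of a gene also left 4 lower and 0 higher. Separate testing of all probe sets and the other Etv1 probe set, both chosen after seeing the data, did so too.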
